A study of Mus musculus with 9 samples.

Results

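The Gimap genes encode GTPases of immunity associated proteins, a family of small guanine nucleotide binding proteins of lymphocytes. The 8 members described here (Gimap1, Gimap3, Gimap4, Gimap5, Gimap6, Gimap7, Gimap8 and Gimap9) were taken by their symbols from the deposited table of 41096 genes, and each matched 1 row. RNA had been sequenced from cells washed out of the peritoneal cavity of APOE-/- mice, 4 diabetic samples and 5 control samples. The diabetic group had received streptozotocin, which destroys the insulin-producing beta cells, in 5 daily doses of 40 mg/kg that began at an age of 8 weeks, and the control group citrate buffer. All mice of both groups lacked Apoe, ate western diet for 8 weeks and received 1.5 mL of 3% thioglycollate, an irritant that recruits leukocytes, 3 days before the cells were taken. The labels call the cells peritoneal macrophages and describe no sorting, and they do not say whether a sample was 1 mouse or a pool, so the spread behind each p-value may be in part technical.

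GIMAP proteins bind GTP through a shared G domain, and several are anchored in the membranes of mitochondria, lysosomes or the endoplasmic reticulum. They are best known for keeping resting T and B lymphocytes alive. In the rat, loss of Gimap5 in the BB strain causes a shortage of T cells and autoimmune diabetes, and in the mouse loss of Gimap1 or Gimap5 depletes mature lymphocytes. The mouse genes lie side by side in 1 cluster. In the deposited table it covers 139.8 kb of chromosome 6, 48715688 to 48855493, in the order Gimap8, Gimap9, Gimap4, Gimap6, Gimap7, Gimap1, Gimap5, Gimap3. Gimap3 and Gimap6 are on the minus strand and the other 6 on the plus strand. The identifiers name a C57BL/6NJ gene set. Although GRCm38 and mm10 stand in the submitters' processing notes, the table's starts lay 68.5 to 84.6 kb above those of GENCODE M21 on GRCm38, with 0 of 8 starts shared. The table's positions are therefore given as deposited, without a build name.

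The promoters of the 4 genes with the smallest p-values are shown because these 4 genes were the members that passed the test below. Each line holds the 250 bases before the RefSeq transcription start, 5′ to 3′, with coordinates on GRCm38.p6, which cannot be set beside the table's. Capitals mark AGGAAG, a core that ETS factors bind, and TGTGGT, a core that RUNX factors bind, on either strand (CTTCCT and ACCACA on the other).
Gimap7, chr6:48718371-48718620, plus strand: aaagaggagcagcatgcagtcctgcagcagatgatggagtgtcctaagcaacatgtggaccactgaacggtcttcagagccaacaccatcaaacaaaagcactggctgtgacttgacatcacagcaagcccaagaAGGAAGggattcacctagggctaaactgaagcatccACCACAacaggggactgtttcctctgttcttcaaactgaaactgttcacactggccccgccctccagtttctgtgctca
Gimap6, chr6:48708245-48708494, minus strand: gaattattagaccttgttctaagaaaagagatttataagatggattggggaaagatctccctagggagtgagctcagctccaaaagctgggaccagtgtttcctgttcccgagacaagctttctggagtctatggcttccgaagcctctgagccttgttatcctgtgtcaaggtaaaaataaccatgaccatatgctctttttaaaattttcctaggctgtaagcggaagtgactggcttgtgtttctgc
Gimap9, chr6:48675885-48676134, plus strand: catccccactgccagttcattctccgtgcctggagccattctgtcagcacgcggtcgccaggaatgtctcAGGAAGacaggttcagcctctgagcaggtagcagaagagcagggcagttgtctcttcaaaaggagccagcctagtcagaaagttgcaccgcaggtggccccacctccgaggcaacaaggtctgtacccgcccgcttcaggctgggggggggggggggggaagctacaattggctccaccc
Gimap3, chr6:48770852-48771101, minus strand: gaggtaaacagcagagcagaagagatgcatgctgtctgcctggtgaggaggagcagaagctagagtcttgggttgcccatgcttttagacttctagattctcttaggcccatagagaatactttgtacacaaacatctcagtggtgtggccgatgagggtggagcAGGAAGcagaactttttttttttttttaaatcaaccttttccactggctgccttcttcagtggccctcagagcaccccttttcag
Of the 9 RefSeq promoters of the 8 members (Gimap8 has 2 that overlap), 7 held AGGAAG on either strand, against 29.5% of all 32851 promoters of the same length, and 3 held TGTGGT, against 14.0%. Gimap6 held neither of these exact words. Other words that ETS or RUNX factors bind were not searched, so its promoter is not shown to lack such cores. TATAAA was found in 1, that of Gimap6, against 12.4% of all. CACCC, which KLF factors bind, was found in 6 of the 9 against 52.0%. CTTTGA (TCF/LEF factors) and TGGGAA (Ikaros) were found in 0 of the 9, against 13.8% and 21.6% of all promoters. None of these motifs contains another, and a match of letters is not a measured binding site.

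Gimap3 and Gimap5 are near copies, which may matter for reading their values. Their coding sequences in the GENCODE M21 annotation were 90.3% identical over 898 aligned bases. They shared 190 words of 50 bases, 7.52% of those in the Gimap3 transcripts and 4.53% of those in the Gimap5 transcripts, and no other pair of members shared any. A read that lies wholly within shared sequence cannot be placed in 1 of the genes, and how the authors' counting treated such reads is unknown here. A read longer than 50 bases may reach a base that differs, and read length was not taken into account. The 120 coding bases below, from base 54 of Gimap3 and base 66 of Gimap5, show the likeness. Capitals mark the 9 bases that differ.
Gimap3: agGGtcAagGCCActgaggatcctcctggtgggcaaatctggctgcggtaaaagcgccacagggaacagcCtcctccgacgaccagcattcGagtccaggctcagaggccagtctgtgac
Gimap5: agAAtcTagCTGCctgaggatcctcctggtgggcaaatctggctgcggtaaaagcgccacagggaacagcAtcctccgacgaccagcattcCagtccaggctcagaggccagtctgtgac
Their longest shared run, coding bases 175 to 314 of Gimap3, is given next in full because it is 140 bases without a difference.
Gimap3 and Gimap5: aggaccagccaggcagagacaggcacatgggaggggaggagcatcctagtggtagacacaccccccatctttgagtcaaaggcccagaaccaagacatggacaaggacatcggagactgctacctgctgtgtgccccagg

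Depth and sample structure set the frame. The libraries held 14156421 to 16169060 reads in genes, recovered as whole reads from the deposited values and lengths. Apoe, the disrupted gene, was at 135 to 296 FPKM (fragments per kilobase of gene, scaled for sequencing depth) in diabetic samples and at 231 to 373 FPKM in control samples, a value that checks neither genotype nor labels. Macrophage markers were abundant in both groups, and B and T cell markers were present in both as well. Lymphocyte genes are therefore read here in a mixture of cells, in which more cells of a type and more RNA per cell cannot be told apart. Diabetic 3 stood nearest the control samples in the Gimap genes, the T cell markers and the B cell markers.

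All 8 Gimap genes had higher means in diabetic samples, with log2 fold changes from 0.63 to 1.41, and 4 of them rose: Gimap7, Gimap6, Gimap9 and Gimap3. The summed level of the family was 397, 515, 216 and 517 FPKM in diabetic 1 to 4, against 214, 113, 176, 138 and 203 FPKM in control 1 to 5. Diabetic 3 was close to control 1, and the other diabetic samples lay well above every control sample. By limma on log2(FPKM + 1) with Benjamini-Hochberg adjustment over 11193 genes, 4 of 8 members passed at 0.05 as higher and 0 as lower, where 2.68% of all genes tested passed as higher 2.08% as lower and 4.76% in either direction. All 8 members were above the low-value filter in every sample. Their median log2 fold change was 1.15, against -0.013 over all genes tested. The 4 that passed were also the 4 whose diabetic values all lay above all control values, a pattern found in 4.82% of genes tested (9.42% had groups without overlap in either direction). Single libraries decided the count: it was 0 without diabetic 2 or without diabetic 4, 1 without diabetic 1 or without control 3, 2 without control 4, and 7 without diabetic 3.

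**Figure D1:**
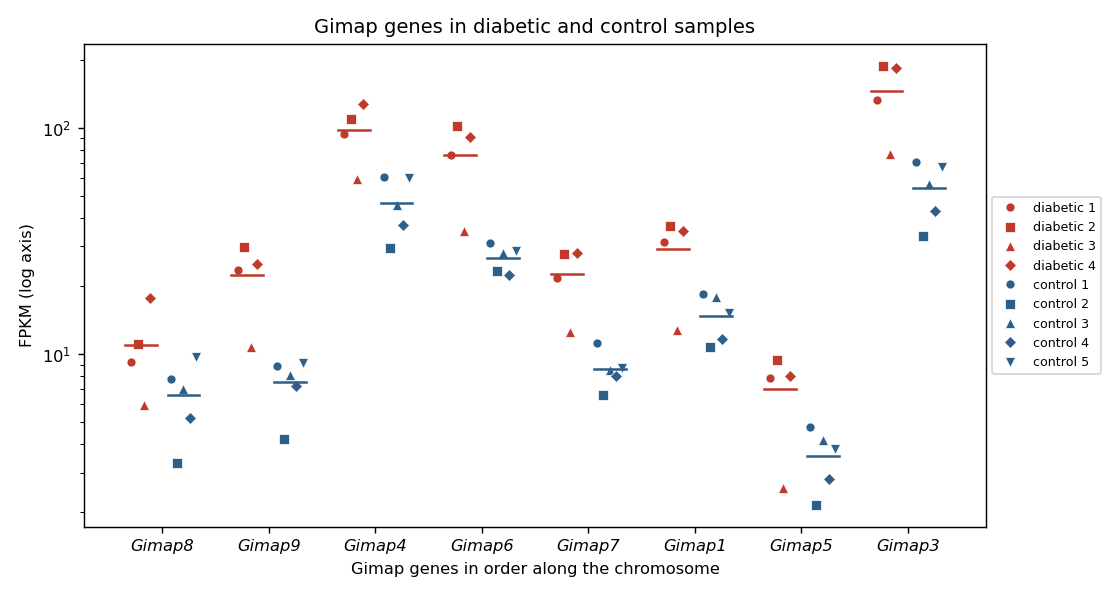
FPKM of the 8 Gimap genes (log axis) in each diabetic sample (red) and control sample (blue), in their order along the chromosome, with horizontal bars at the group means. Diabetic 3 is the lowest diabetic sample for all 8 genes, and only in Gimap9, Gimap6, Gimap7 and Gimap3 do the groups not overlap.

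Gimap3 was the most abundant member. Gimap3 protein sits on mitochondria and in the mouse acts with Gimap5 in T cell survival. It had 133, 188, 76.7 and 185 FPKM in diabetic 1 to 4, against 70.5, 33.4, 56.3, 42.9 and 67.1 FPKM in control 1 to 5. All diabetic samples were above all control samples, diabetic 3 only just. The means were 146 ± 52.3 FPKM in diabetic samples (SD, n = 4) and 54.0 ± 15.8 FPKM in control samples (SD, n = 5), a log2 fold change of 1.38 (SE 0.30, limma adjusted p = 0.030).

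Gimap5, its near copy, was the least abundant per length and did not pass. It had 7.88, 9.46, 2.58 and 8.05 FPKM in diabetic 1 to 4, against 4.78, 2.16, 4.17, 2.80 and 3.80 FPKM in control 1 to 5. Diabetic 3 lay below 4 of the 5 control samples, and the other diabetic samples above all of them. The log2 fold change was 0.74 (SE 0.31, limma adjusted p = 0.19). Besides the words shared with Gimap3, the gene overlaps the row Gm28053, which spans Gimap7, Gimap1 and Gimap5 on the same strand and held 50 reads over the diabetic and 30 over the control libraries.

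Gimap1, needed for the upkeep of mature B and T cells in the mouse, was intermediate. It had 31.4, 37.0, 12.8 and 35.1 FPKM in diabetic 1 to 4, against 18.4, 10.7, 17.9, 11.7 and 15.3 FPKM in control 1 to 5. Diabetic 3 lay inside the control range and the other diabetic samples above it. The log2 fold change was 0.85 (SE 0.30, limma adjusted p = 0.13). Its antisense neighbour Gimap1os, under the filter and not tested, had 1.38, 1.36, 0.474 and 1.64 FPKM in diabetic 1 to 4 and 0.220 to 0.368 FPKM in the 5 control samples. No source used here gives the strand setting of the counting, so reads of Gimap1 and Gimap1os may be mixed.

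Gimap6, which binds an ATG8 family protein of the autophagy machinery, rose as well. It had 76.2, 102.0, 35.0 and 91.4 FPKM in diabetic 1 to 4, against 31.2, 23.4, 28.04, 22.5 and 28.7 FPKM in control 1 to 5. The control samples were close together, and every diabetic sample lay above them. The means were 76.1 ± 29.4 FPKM in diabetic samples (SD, n = 4) and 26.8 ± 3.68 FPKM in control samples (SD, n = 5), a log2 fold change of 1.38 (SE 0.27, limma adjusted p = 0.023).

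Gimap4, which promotes the death of T cells in mouse studies, stood at the edge of the threshold. It had 93.7, 109.8, 59.3 and 127 FPKM in diabetic 1 to 4, against 61.0, 29.4, 45.8, 37.2 and 60.2 FPKM in control 1 to 5. Diabetic 3 fell under control 1 and control 5, so the groups overlapped. The log2 fold change was 1.04 (SE 0.26) and the limma adjusted p was 0.051, over an alternative range of 0.011 to 0.15 when 1 sample was left out. An exact permutation test on Gimap4 alone gave a two-sided p of 0.024, with all 4 diabetic samples above the control mean.

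Gimap7 had the smallest p of the family. In human cells GIMAP7 forms dimers that speed GTP hydrolysis, its own and that of other GIMAPs. It had 21.8, 27.9, 12.6 and 28.04 FPKM in diabetic 1 to 4, against 11.3, 6.60, 8.49, 7.99 and 8.68 FPKM in control 1 to 5. The groups did not overlap. The means were 22.6 ± 7.26 FPKM in diabetic samples (SD, n = 4) and 8.61 ± 1.70 FPKM in control samples (SD, n = 5), a log2 fold change of 1.25 (SE 0.22, limma adjusted p = 0.017). With each sample left out in turn it passed 7 times of 9, against 5 for Gimap6, 4 for Gimap9 and 4 for Gimap3.

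Gimap9, a member of less studied function, had the highest log2 fold change of the family, 1.41 (SE 0.29, limma adjusted p = 0.025). It had 23.6, 29.8, 10.8 and 25.0 FPKM in diabetic 1 to 4, against 8.90, 4.22, 8.10, 7.24 and 9.11 FPKM in control 1 to 5. The groups did not overlap, with diabetic 3 closest to the control samples. Gimap8, which carries several G domains in 1 protein, had the lowest, 0.63 (SE 0.31, limma adjusted p = 0.27). It had 9.20, 11.1, 5.95 and 17.7 FPKM in diabetic 1 to 4, against 7.79, 3.32, 7.01, 5.24 and 9.76 FPKM in control 1 to 5. Diabetic 4 was the highest sample, and diabetic 1 and diabetic 3 lay inside the control range.

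Counted per length, the order of mean levels was Gimap3, Gimap4, Gimap6, Gimap1, Gimap7, Gimap9, Gimap8 and Gimap5. Gimap7 and Gimap9 could not be told apart: Gimap7 was the higher in 2 of 4 diabetic and 4 of 5 control samples, with a mean log2 ratio of 0.042 ± 0.17 in diabetic samples and 0.23 ± 0.28 in control samples (SD). Gimap9 exceeded Gimap8 in 4 of 4 diabetic and in 4 of 5 control samples, by a mean log2 ratio of 1.03 ± 0.44 in diabetic samples and 0.22 ± 0.21 in control samples (SD). The other neighbours in this order kept their places in all 9 samples. The length that the table gives for Gimap8, 2067 bases, equals its coding length in GENCODE M21, while the other members' lengths exceed theirs, so the per-length level of Gimap8 is set on a different footing.

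**Figure D2:**
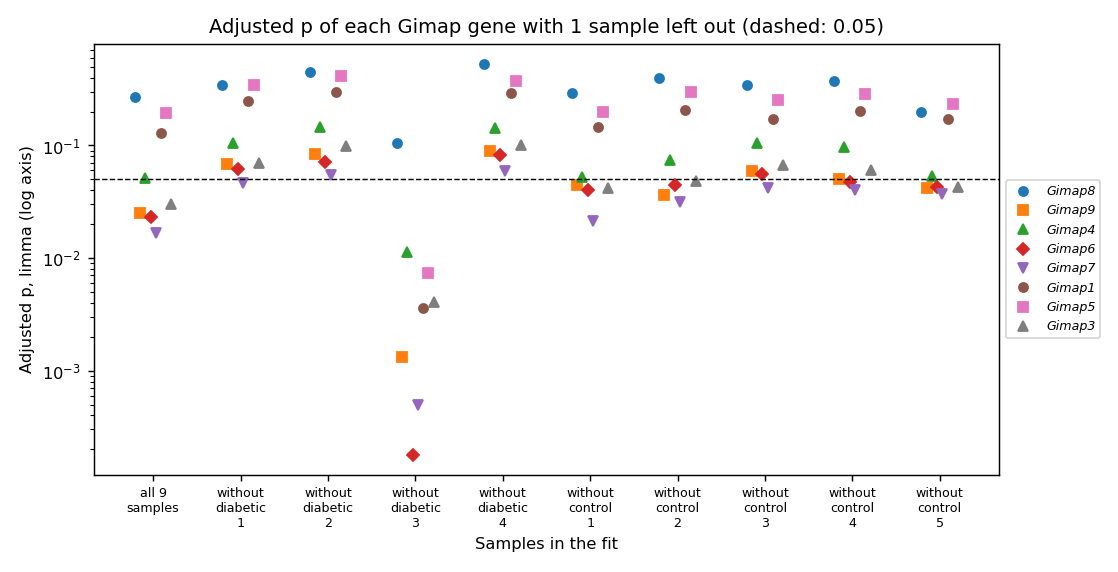
Adjusted p of each Gimap gene (limma, log axis) with all 9 samples and with each sample left out in turn; the dashed line is 0.05. Without diabetic 3 all members but Gimap8 lie below the line, and without diabetic 2 or diabetic 4 none does.

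None of the tested genes around the cluster passed. Within 300 kb of the outermost members the table held 39 other rows, 29 of them with gene names, and 7 reached the filter. By background, 4.76% of all genes tested passed. The 7 log2 fold changes ran from -0.49 to 0.074 with a median of -0.089. Tmem176b, a membrane protein gene of myeloid cells that lies 83.1 kb beyond Gimap3, had 128 ± 16.8 FPKM in diabetic samples (SD, n = 4) and 138 ± 36.0 FPKM in control samples (SD, n = 5; log2 fold change -0.089, limma adjusted p = 0.80). Zfp775, a zinc finger gene 24.2 kb before Gimap8, had a log2 fold change of 0.074 (limma adjusted p = 0.84). The smallest p was that of Zfp467, another zinc finger gene (log2 fold change -0.38, limma adjusted p = 0.094), followed by Lrrc61 (-0.32, limma adjusted p = 0.27). Gpnmb, a gene of lipid-laden macrophages at the far edge of the window, had the lowest log2 fold change, -0.49 (SE 0.51, limma adjusted p = 0.61).

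**Figure D3:**
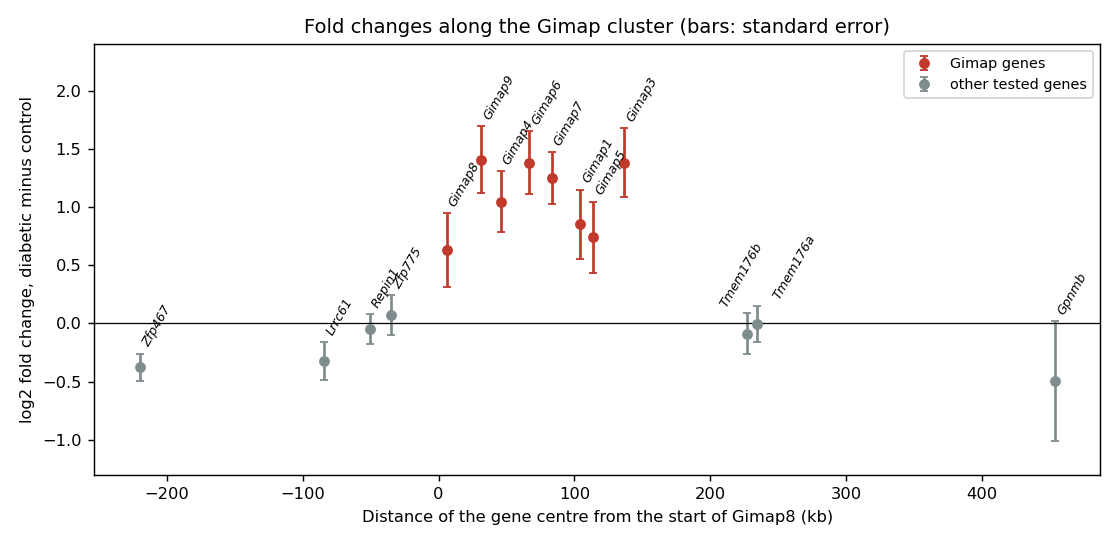
Log2 fold change (diabetic minus control, log2(FPKM + 1) scale, bars are standard errors) of the 8 Gimap genes (red) and the 7 other tested genes (grey) against the distance of each gene's centre from the start of Gimap8. The Gimap genes lie between 0.63 and 1.41 and the other genes between -0.49 and 0.074.

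The members varied together among samples of the same group. After each group's mean had been subtracted, the 28 pairs of members had correlations of 0.73 to 0.99 over the 9 samples (median 0.92), a description of samples that share library and depth. Control 2 was the lowest control sample for 7 of the 8 members, and diabetic 3 the lowest diabetic sample for all 8. The genes outside the family with the most similar deviations were Spata13, Cd79b, Fcrla, Slc17a9, Spint2, Nxpe3, Iglc3, Bcl2, Sirt4 and Acap1, with correlations of 0.97 to 0.99 with the mean of the members over the same 9 samples. The middle 90% of the other genes tested ran from -0.79 to 0.77. Among these 10, Cd79b is a chain of the B cell receptor complex, Fcrla a B cell Fc receptor-like gene, Iglc3 an immunoglobulin light chain constant gene and Bcl2 the survival factor of lymphocytes. Between the groups 3 of the 10 passed, all as higher: Spata13 (log2 fold change 0.95, SE 0.19, limma adjusted p = 0.023), Spint2 (0.78, limma adjusted p = 0.048) and Bcl2 (1.01, limma adjusted p = 0.025). Cd79b did not pass (log2 fold change 0.60, SE 0.29, limma adjusted p = 0.26), and neither did the other 6, down to Sirt4 (0.088, limma adjusted p = 0.73).

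The T cell, naive T cell and B cell lists were lowest in diabetic 3 among the diabetic samples, as the Gimap genes were. The counts below stand beside the 2.68% of all genes tested that rose and the 2.08% that fell. Of 18 tested T cell markers 17 rose and 0 fell, with a median log2 fold change of 1.99, and their summed level was 244 to 753 FPKM in diabetic samples against 134 to 190 FPKM in control samples. Of 10 naive T cell and homing genes 6 rose and 0 fell (median 1.46). Their sums were 819 to 1043 FPKM in diabetic samples against 460 to 707 FPKM in control samples. Most of each sum was Klf2, at 481 to 633 FPKM in diabetic samples and 342 to 583 FPKM in control samples. Klf2 did not pass (log2 fold change 0.22, limma adjusted p = 0.47). Of 14 tested B cell markers 4 rose and 0 fell (median 0.61), with sums of 1645 to 3531 FPKM in diabetic samples against 1074 to 2258 FPKM in control samples. Of 11 natural killer cell markers 2 rose, Klrd1 and Nkg7 (median 0.40), with sums of 96.9 to 127 FPKM in diabetic samples and 46.6 to 97.1 FPKM in control samples. Among diabetic samples this list was highest in diabetic 3 by mean log2(FPKM + 1), but in diabetic 4 by summed FPKM (127 against 121 in diabetic 3). Of the 2 that rose, Nkg7 was lowest in diabetic 3 (29.2 FPKM) and Klrd1 highest in diabetic 4 (26.4 FPKM). The mean log2(FPKM + 1) of the natural killer cell list, counted from the control mean, was 0.52, 0.084, 0.80 and 0.67 in diabetic 1 to 4. In control 1 to 5 it was -0.22, -0.072, -0.14, 0.53 and -0.089. The part of these lists in the Gimap result was not tested.

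Over all genes tested 2.68% rose and 2.08% fell, and in short lists a count of 0 or 1 is near that background. No tested macrophage marker rose. Of 10 tested, 0 rose and 1 fell, the mannose receptor gene Mrc1 (median -0.20), with sums of 5903 to 9937 FPKM in diabetic samples and 7466 to 11274 FPKM in control samples. Of 11 large peritoneal macrophage markers none passed (median 0.24), with sums of 417 to 683 FPKM in diabetic samples and 489 to 738 FPKM in control samples. None of 10 tested granulocyte markers passed (median -0.71), with sums of 308 to 653 FPKM in diabetic samples and 278 to 1400 FPKM in control samples. Of 4 tested dendritic cell markers Batf3 fell and 3 did not pass, with sums of 69.6 to 102 FPKM in diabetic samples and 73.5 to 129 FPKM in control samples. Endothelial cells also express Gimap genes, and of 12 endothelial markers only Pecam1, which leukocytes share, reached the filter. Pecam1 rose (log2 fold change 1.12, SE 0.26, limma adjusted p = 0.038), and the endothelial genes Sox17, Emcn and Cldn5 were at 0 in all 9 samples. The endothelial sum was 11.4 to 20.7 FPKM in diabetic samples and 6.75 to 10.4 FPKM in control samples, most of it Pecam1. The other 11 genes summed to 1.36 to 2.91 FPKM in diabetic samples and 1.41 to 2.98 FPKM in control samples.

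Sample by sample, the Gimap genes lay between the T cell and B cell lists or on the B cell list. Their mean log2(FPKM + 1), counted from the control mean, was 1.16, 1.47, 0.23 and 1.49 in diabetic 1 to 4, against 0.34, -0.50, 0.12, -0.20 and 0.24 in control 1 to 5. The B cell list had 1.05, 1.23, 0.24 and 1.50 in diabetic 1 to 4, against 0.43, -0.49, 0.16, -0.34 and 0.24 in control 1 to 5. The T cell list had 1.80, 2.53, 0.93 and 2.35 in diabetic 1 to 4, against 0.042, -0.075, 0.29, -0.090 and -0.17 in control 1 to 5. In diabetic 3 the Gimap genes and the B cell list were inside the range of the control samples, while the T cell list was above it.

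**Figure D4:**
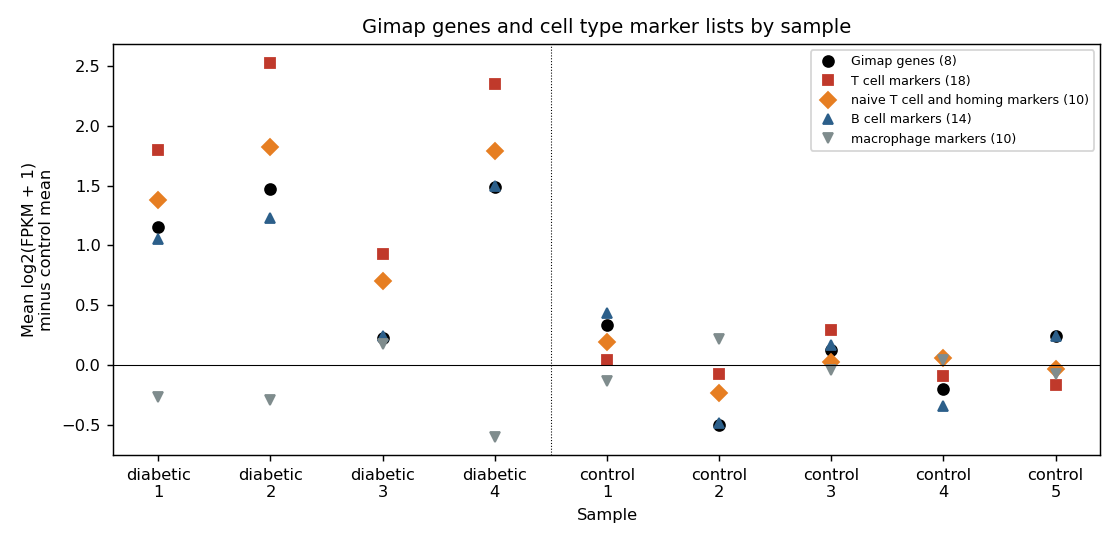
Mean log2(FPKM + 1) of the tested genes of each list minus the mean over the control samples, for the 4 diabetic samples (left of the dotted line) and the 5 control samples. The Gimap genes (black) are at 0.23 in diabetic 3 and between 1.16 and 1.49 in the other diabetic samples, close to the B cell markers (blue) and below the T cell markers (red).

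Set beside the CD3 chains of the T cell receptor complex, the Gimap genes differed less between the groups. The summed level of Cd3d, Cd3e and Cd3g was 85.8, 162, 44.3 and 149 FPKM in diabetic 1 to 4, against 19.4, 16.3, 25.1, 16.1 and 17.0 FPKM in control 1 to 5. The ratio of the Gimap sum to this sum was 4.63, 3.18, 4.87 and 3.48 in diabetic 1 to 4, against 11.0, 6.95, 6.996, 8.57 and 11.9 in control 1 to 5. The ratio was lower in every diabetic sample than in any control sample. A limma fit on the difference between each gene's log2(FPKM + 1) and the mean of the CD3 chains called 5 members as changed less than the chains. These were Gimap8 (log2 difference -1.59, SE 0.43, adjusted p = 0.00024), Gimap5 (-1.48), Gimap1 (-1.37), Gimap4 (-1.18) and Gimap7 (-0.97, SE 0.43, adjusted p = 0.025). Gimap6, Gimap3 and Gimap9 had differences of -0.84, -0.84 and -0.82 (SE 0.43 to 0.44) and did not pass (limma adjusted p = 0.056 to 0.060). Of all genes tested, 99.2% passed in this direction, so the 5 calls do not set the family apart from other genes.

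**Figure D5:**
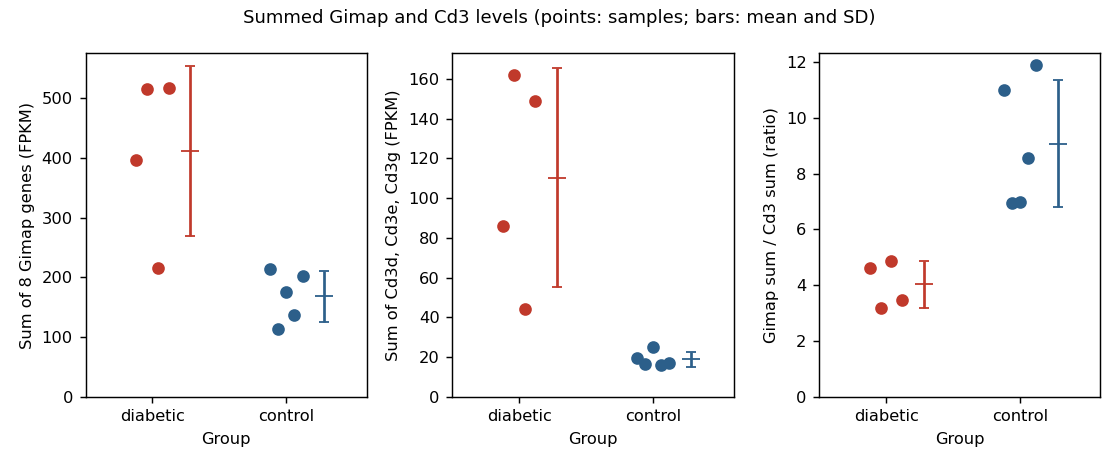
Summed FPKM of the 8 Gimap genes, summed FPKM of Cd3d, Cd3e and Cd3g, and their ratio, in 4 diabetic samples (red, left) and 5 control samples (blue, right), with mean and SD beside the points. Both sums are higher in every diabetic sample, and the ratio lies between 3.18 and 4.87 in diabetic samples and between 6.95 and 11.9 in control samples.

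Genes tied to GIMAP function by earlier work were counted against the 2.68% of all genes tested that rose and the 2.08% that fell. With lists of 6 to 11 genes, a count of 0 or 1 is near that background. Of 11 tested BCL2 family genes, some of whose products GIMAPs were found to bind, 1 rose and 0 fell (median log2 fold change 0.079). It was Bcl2, with 5.72, 7.39, 3.35 and 7.46 FPKM in diabetic 1 to 4, against 2.79, 1.38, 2.54, 2.36 and 2.90 FPKM in control 1 to 5. The groups did not overlap (log2 fold change 1.01, SE 0.21, limma adjusted p = 0.025). Of 6 tested genes of interleukin-7 receptor signalling, which keeps naive T cells alive, Il2rg rose, encoding the common cytokine receptor chain (log2 fold change 0.52, SE 0.11, limma adjusted p = 0.027). Il7r, the receptor chain itself, had 23.9 ± 5.12 FPKM in diabetic samples (SD, n = 4) and 21.4 ± 9.52 FPKM in control samples (SD, n = 5; limma adjusted p = 0.68).

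None of 11 tested autophagy genes, the family and machinery of the ATG8 protein that Gimap6 binds, passed (median -0.14). Atg7 and Gabarapl1 had the smallest p, with log2 fold changes of -0.25 and -0.39 (limma adjusted p = 0.21 for both). None of 8 genes of the GSK3 and beta-catenin list, linked to Gimap5 in mouse T cells, passed (median 0.054; Nfatc1 0.26 and Myc 0.34). The lymphocyte transcription factor list shares Klf2, Tcf7 and Lef1 with the naive T cell and homing list. The calls of Tcf7 and Lef1 are therefore counted in both lists. Of 11 tested lymphocyte transcription factors 4 rose and 0 fell (median 0.42). They were Lef1 and Tcf7, partners in naive T cells (log2 fold changes 2.12 and 2.48), Foxo1 (0.79, SE 0.15, limma adjusted p = 0.019) and Bach2, a repressor that keeps B and T cells undifferentiated (0.78, SE 0.17, limma adjusted p = 0.030). Ets1, of the ETS family, had 16.9 ± 5.32 FPKM in diabetic samples (SD, n = 4) and 8.17 ± 3.09 FPKM in control samples (SD, n = 5) and did not pass (limma adjusted p = 0.075).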

How the data were processed

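The authors deposited 1 table of FPKM values for 9 samples, with gene lengths and positions, per the file headers, and 0 sample columns stayed unmatched. GRCm38 and mm10 are named in the submitters' processing notes, but the members' positions in the table differ from GRCm38. For the aligner, counter and strand, the sources used here name nothing. FPKM times length gave whole multiples of 1 read in each sample (100% of values within 0.05 of a whole number). Genes at 1 FPKM or more in 4 or more samples entered a fit of log2(FPKM + 1) by limma 3.58.1 (R 4.3.3) with trend and robust moderation, group as the only factor, two-sided, and Benjamini-Hochberg adjustment over all of them. Fold changes on this scale understate low genes. The fit was also run on simulated data with each gene drawn independently. Those data lack variation shared between genes, which the members showed, so that run does not bear on how stable the calls are. The members and lists were chosen with earlier results of these data known. Named were all members, overlapping rows, neighbours within 300 kb with up to 4 of the smallest p, up to 4 passing genes of each list or else 2, and the 10 genes most like the members. The comparison with the CD3 chains, and Zfp775, Il7r, Klf2, Ets1 and the per-sample list values, were added after values were seen. Replicate numbers did not pair the samples. Promoters came from RefSeq (GRCm38.p6; all 8 members matched) and coding sequences from GENCODE M21, aligned with Biopython 1.88. Protein sequences were not used here.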

Additional observations from a re-analysis of the deposited data

How the results depend on the processing

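All 8 log2 fold changes were positive in each of 160 single-gene alternatives. Of these, 127 kept their side of the threshold, 23 lost a call and 10 gained one. Not all of them could change a sign. Dropping the filter, a mean FPKM of at least 5, plain eBayes and the permutation test reused the main estimate and altered only its p. The replicate block repeated the estimate obtained without control 5. Only alternatives with an estimate of their own bear on the sign. The 4 members called became 7 with array weights, which called 1304 genes instead of 533, and 1 (Gimap7) without the filter, where 22471 genes entered the adjustment and 183 passed. Leaving out 1 sample gave 0 to 7 members and 115 to 1126 genes. With a replicate block on the 8 samples numbered 1 to 4, 0 members and 73 genes passed, against 4 members and 363 genes in the same samples without it. Same-numbered samples correlated at 0.023, 0.16, -0.26 and -0.18 after subtraction of group means, and only diabetic 2 correlated best with its own number, so the numbers are not read as pairs. Pseudocounts of 0.1 and 0.01, plain totals and voom on whole reads left 4 members called, and upper quartile scaling, plain eBayes and a mean FPKM of at least 5 left 5, with Gimap4 added. The exact permutation test gave p = 0.0079 for Gimap3, Gimap6, Gimap7 and Gimap9, the smallest p that 4 against 5 samples allow. Groups without overlap make the observed split the most extreme in its direction, so this p restates the non-overlap of these genes. Depth limits Gimap8 and Gimap9 most, with 101 and 102 reads in their lowest libraries.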

Other observations

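The makeup of the family differed somewhat between the groups, given here as values without a test. Gimap3 made up 35.3 ± 1.24% of the summed Gimap FPKM in diabetic samples (SD, n = 4) and 31.8 ± 1.48% in control samples (SD, n = 5). Its range was 33.6 to 36.5% in diabetic samples and 29.5 to 33.1% in control samples, without overlap. Gimap8 made up 2.67 ± 0.568% in diabetic samples and 3.84 ± 0.680% in control samples, and Gimap1 6.95 ± 0.827% in diabetic samples and 8.86 ± 1.01% in control samples, both with overlapping ranges. Gimap7 held 5.54 ± 0.203% in diabetic samples and 5.20 ± 0.660% in control samples. Shares of 1 sum are tied to each other, so a larger share of 1 member lowers the others.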
